A study of Arabidopsis thaliana with 6 samples.

Results

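The mTERF family genes are nuclear genes for organelle proteins that share the short helical mTERF repeat. Here 10 of them were described, chosen by gene identifier: MTERF2 (AT2G21710), MTERF1 (AT2G03050, also SOLDAT10), MTERF4 (AT4G02990, also RUG2 or BSM), MTERF5 (AT4G14605, also MDA1), MTERF6 (AT4G38160), MTERF9 (AT5G55580), MTERF15 (AT1G74120), MTERF18 (AT3G60400, also SHOT1), AT2G34620 and PTAC15 (AT5G54180). They are 10 of the 36917 genes in the count tables. RNA-Seq counts were available for the wild type Col-0 and for amiR-mterf2, with 3 libraries each; the latter is a mutant in which an artificial microRNA is directed against MTERF2. All seedlings were 6 days old and grew in long days on agar medium with sucrose, and the study describes independent biological replicates of each genotype. Its figure legends name a single line, amiR1-3-mterf2, as the mutant sequenced. The line is a knock-down, because complete loss of MTERF2 is lethal to the embryo, and whole seedlings were sampled. The question was whether the relatives of MTERF2 differ in RNA level when MTERF2 is silenced.

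mTERF proteins stack their repeats into a curved scaffold that binds nucleic acids, and in plants nearly all of them work in chloroplasts or mitochondria. There they act at different steps of organelle gene expression, such as transcription, its termination, intron splicing and ribosome assembly, and many of their mutants are pale, dwarfed or embryo lethal. Animals have few mTERF genes, whereas land plants have a large family.

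In amiR-mterf2 the level of MTERF2 was 0.455 times that of Col-0, a difference that did not pass the test. Among its relatives, MTERF6 rose 2.24-fold and MTERF9 rose 1.70-fold. The other 7 relatives were not called in either direction. Thus 2 of the 10 members were called, against 36.4% of the 17902 genes tested, and in 3 of the 10 the genotypes did not overlap, against 49.4% of those genes. The members' sequences differ enough to tell one member from another: the longest stretch of identical coding bases shared by any pair was 16 bp. No stretch of 30 bases in a member's transcripts recurred in another of the 38 genes taken as mTERF genes here. These are the 10 members and 28 genes chosen by product name, and sharing with the rest of the genome was not examined. The 45 pairs of predicted proteins had a median identity of 25.7% over aligned residues. The most alike pair was MTERF1 and AT2G34620, at 42.9%, and the protein closest to MTERF2 was MTERF1, at 30.4%.

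The target of the silencing is shown as sequence because it bears on which relatives could share it. The study places the site at nucleotides 83 to 103 from the start codon, and with the A of the start codon counted as 1 it lies in the first coding exon of MTERF2, at chr2:9270968-9270988 on the plus strand of TAIR10.1. All 3 annotated MTERF2 transcripts use this start codon. The site stands in capitals, with 20 coding bases on each side (chr2:9270948-9271008).
MTERF2 site: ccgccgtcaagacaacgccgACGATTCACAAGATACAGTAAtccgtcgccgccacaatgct
In each relative's transcripts the stretch of 21 bases most like this site was then sought. The closest stretches in MTERF4 (chr4:1323644-1323664) and AT2G34620 (chr2:14577086-14577106), the nearest of all relatives, and in the called genes MTERF6 (chr4:17903075-17903095) and MTERF9 (chr5:22517528-22517548), all on the plus strand, are given with the bases that differ from the site in capitals.
MTERF4: acgaCAcaATagataTagAaG
AT2G34620: acCaAtcacaaAaGaGaAtaG
MTERF6: aAgattcTcaaACCaAaTtaT
MTERF9: GTgaAAcGcGagatacTgCaa
The closest stretch differed from the site at 7 bases in MTERF4 and AT2G34620 and at 8 bases in MTERF6 and MTERF9. Over all 9 relatives the fewest differences ranged from 7 to 9, and over 28 other genes, taken as mTERF genes by their product name, from 7 to 10. The microRNA's own sequence was not analysed here.

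The libraries held 18004935 to 21832003 gene counts each, of which the 10 members together had 1558 to 2274. Levels are CPM, counts divided by the library size after TMM scaling, which assumes most genes to be equal between libraries. In these units 3 counts correspond to 0.140 to 0.175 CPM, a floor that covers counting error only. Col-0 replicate 2 stood apart: its counts of nuclear genes (those reaching 20 counts per pair of libraries) differed from those of the other Col-0 libraries by a mean chi-square of 24.3 and 25.2 per gene, against 3.03 to 3.58 for the other pairs within a genotype. It also had 176 counts of the root hair gene COBL9 and 69 of EXPA7, against at most 12 and 0 in each other library, so results that rest on it are given without it too. All 5 green-tissue markers were abundant in all libraries, with a summed level of 13005.5 to 21423.0 CPM in Col-0 and 17298.2 to 17618.1 CPM in amiR-mterf2. The highest sum was again that of Col-0 replicate 2. It had 107424 counts of the green-tissue gene RBCS1A, against 43231 and 44591 in Col-0 replicates 1 and 3.

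MTERF2, the silenced gene, encodes a chloroplast protein and had the lowest level per length of the members. The Col-0 libraries had 48, 33 and 58 counts and the amiR-mterf2 libraries 32, 16 and 8. Exact Poisson 95% intervals, which hold counting error only, ran from 21.9 to 45.2 for the 32 counts and from 3.45 to 15.8 for the 8 counts. These intervals do not overlap, but they treat every count as an independent fragment. The study sequenced paired ends, and whether both mates of a fragment were counted is not given in the sources used here. The intervals therefore do not settle whether the amiR-mterf2 libraries differed from each other by more than counting error. In CPM the Col-0 values were 2.25, 1.80 and 2.71 and the amiR-mterf2 values 1.87, 0.781 and 0.427. The genotypes overlapped at amiR-mterf2 replicate 1 and Col-0 replicate 2. The log2 fold change was -1.15 (standard error 0.478, edgeR quasi-likelihood, Benjamini-Hochberg adjusted p = 0.0837). Its 95% interval, not adjusted for the number of genes, ran from -2.20 to -0.10 on the log2 scale, that is from 0.217 to 0.935 of the Col-0 level. The fold change was -1.88 without amiR-mterf2 replicate 1 (edgeR adjusted p = 0.0150) and -1.29 without Col-0 replicate 2 (edgeR adjusted p = 0.0265), and these were the alternatives in which the fall was called. Without amiR-mterf2 replicate 3, the library with the lowest level, it was -0.78 (edgeR adjusted p = 0.236). The study itself reports lower MTERF2 transcript levels in its amiR lines, by quantitative RT-PCR and in its RNA-Seq.

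A ratio within each library is free of the scaling between libraries. The log2 ratio of MTERF2 counts to the counts of its 9 relatives was -5.16, -5.53 and -4.85 in Col-0 and -5.86, -7.14 and -8.09 in amiR-mterf2. On this measure every amiR-mterf2 library lay below every Col-0 library. The ratio also holds the rise of the relatives, whose summed level was 0.47 higher on the log2 scale, so its difference is larger than that of MTERF2 itself, whose CPM ranges overlapped. The means were -5.18 ± 0.342 and -7.03 ± 1.12 (SD, n = 3), a difference of -1.85 (two-sided exact permutation test, p = 0.1, the smallest p that 3 libraries against 3 can give). With all other mTERF genes in place of the 9 relatives the difference was -1.80, and with 1 library left out at a time it ranged from -2.44 to -1.32.

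**Figure D1:**
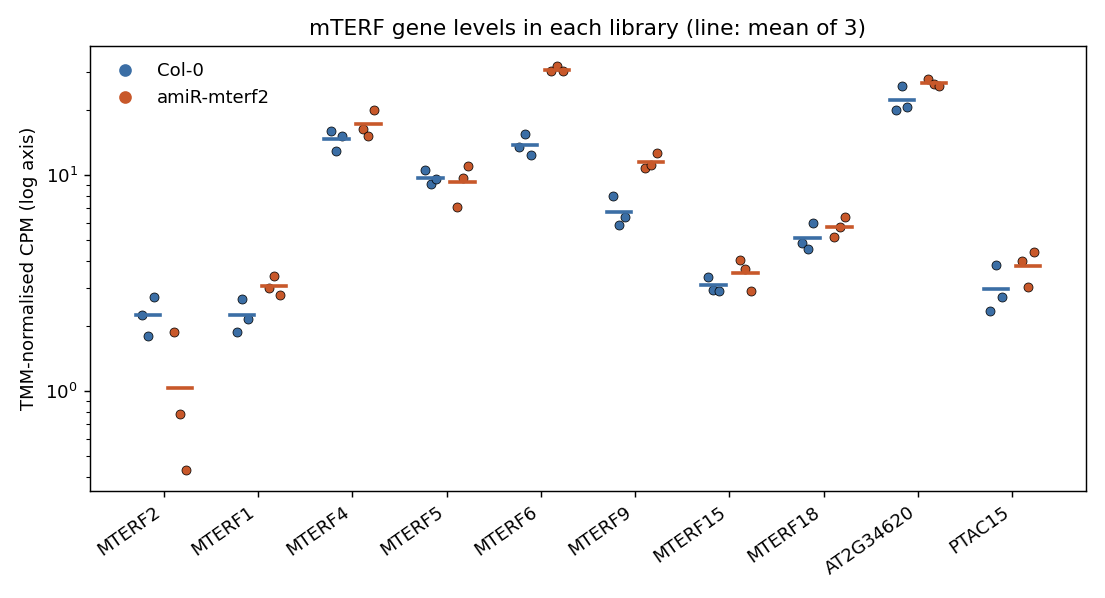
Level of each mTERF gene in each library, in TMM-normalised CPM on a log axis, with Col-0 in blue and amiR-mterf2 in orange and a line at each mean of 3 libraries. MTERF6 and MTERF9 in amiR-mterf2 lie above all Col-0 points, at 30.2 to 32.0 and 10.8 to 12.7 CPM, whereas the MTERF2 points of the genotypes overlap.

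MTERF6 showed the largest rise of the members. It is a plastid and mitochondrial protein that acts in the maturation of a plastid isoleucine tRNA and in transcription termination behind a plastid operon. Its level was 13.4, 15.4 and 12.4 CPM in the Col-0 libraries and 30.3, 32.0 and 30.2 CPM in the amiR-mterf2 libraries. The lowest amiR-mterf2 library was 1.96 times the highest Col-0 library. Means of 13.8 ± 1.52 and 30.9 ± 0.979 CPM (SD, n = 3) gave a change of 1.17 on the log2 scale (standard error 0.122, 95% interval 0.90 to 1.43, edgeR adjusted p = 2.97e-05). Without Col-0 replicate 2 it was 1.26 (edgeR adjusted p = 1.05e-09), and over all 13 alternatives it stayed between 1.02 and 1.26, past the threshold in each.

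MTERF6 and MTERF9 varied less among the mutant libraries than MTERF2 did. Across amiR-mterf2 the highest MTERF2 level was 4.38 times the lowest, whereas for MTERF6 this ratio was 1.06 and for MTERF9 it was 1.18. MTERF2 had 8 to 32 counts in these libraries, against 519 to 655 for MTERF6 and 185 to 238 for MTERF9. Counting error spreads low counts more, so these ratios are not a like comparison. MTERF6 shares 17 bp of exon, 0.852% of its 1995 bp, with AT4G38150 on the opposite strand. That neighbour had 58 to 100 counts per library against 266 to 655 for MTERF6 and was not called (log2 fold change 0.45, edgeR adjusted p = 0.118). Whether the authors' counting used strand is not given in the sources used here.

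MTERF9 was the other relative that rose. Its protein takes part in chloroplast ribosome assembly, and its mutants, named twirt1, have short roots. The level was 8.03, 5.89 and 6.41 CPM in Col-0 and 10.8, 11.1 and 12.7 CPM in amiR-mterf2. No library of one genotype reached the range of the other, with the lowest amiR-mterf2 value 1.35 times the highest Col-0 value. The means of 6.78 ± 1.12 and 11.5 ± 1.03 CPM (SD, n = 3) gave a log2 fold change of 0.77 (standard error 0.161, 95% interval 0.41 to 1.12, edgeR adjusted p = 0.00349). Without Col-0 replicate 2 it was 0.68 (edgeR adjusted p = 0.00152). In all 13 alternatives the fold change was positive and past the threshold, between 0.60 and 0.91. MTERF9 shares 68 bp with AT5G55570 on the opposite strand, a gene with 2 to 28 counts per library, too few to be tested.

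The calls among the relatives are set against those over all genes. Of the 9 relatives 2 were higher and 0 lower at an adjusted p under 0.05, while 18.1% of the 17902 genes tested were higher and 18.2% lower. MTERF5 alone of the relatives had an estimate below 0. An unadjusted p under 0.05 was found for 2 of the 9, both higher, against 8063 of the 17902 genes tested, in either direction (edgeR). By the DESeq2 Wald test 2 members were likewise higher and 0 lower. The 2 of 9 called higher lie close to the share of all genes called higher. The 0 of 9 called lower lie below the share called lower, and 36.4% of all genes were called in either direction. With 9 genes these counts are no result about the family as such. The median log2 fold change of the 9 relatives was 0.27, against -0.02 over all genes tested, and 8 of the 9 estimates were above 0, against 49.0% of all genes. All 10 members passed the filter on low counts.

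Among the relatives linked to chloroplast transcription, neither MTERF5 nor PTAC15 was called. MTERF5 binds DNA of a plastid photosystem operon and acts on its transcription. Its level was 10.5, 9.11 and 9.59 CPM in Col-0 and 7.07, 9.67 and 11.1 CPM in amiR-mterf2, so that the mutant libraries spread around the Col-0 range. The log2 fold change was -0.07 with a 95% interval of -0.45 to 0.31 (edgeR adjusted p = 0.785), and without amiR-mterf2 replicate 1 it was 0.10. PTAC15, also called mTERF8, was found in the plastid transcriptionally active chromosome. It had 2.35, 3.82 and 2.71 CPM in Col-0 and 3.98, 3.03 and 4.38 CPM in amiR-mterf2. The ranges overlapped, and the log2 fold change was 0.36 with a 95% interval of -0.23 to 0.95 (edgeR adjusted p = 0.323). The overlap rested on Col-0 replicate 2, without which the change was 0.58 (edgeR adjusted p = 0.0963).

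The relatives linked to intron splicing, MTERF4 and MTERF15, were not called either. MTERF4 is needed for splicing of chloroplast introns, as shown for its maize counterpart, and its loss gives albino plants. Its level was 16.0, 12.9 and 15.2 CPM in Col-0 and 16.4, 15.2 and 20.03 CPM in amiR-mterf2. Here amiR-mterf2 replicate 2 fell within the Col-0 range, and the log2 fold change was 0.23 with a 95% interval of -0.09 to 0.55 (edgeR adjusted p = 0.248). Without Col-0 replicate 2 it was 0.15 (edgeR adjusted p = 0.393). MTERF15 is a mitochondrial protein required for splicing of a nad2 intron. With 3.38, 2.94 and 2.90 CPM in Col-0 and 4.03, 3.66 and 2.89 CPM in amiR-mterf2 it had both the highest and the lowest value in the mutant. Its log2 fold change was 0.20 with a 95% interval of -0.32 to 0.71 (edgeR adjusted p = 0.555). For MTERF15 a rise of up to 1.64-fold thus lies within the interval.

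MTERF1 and MTERF18 were found through stress phenotypes. MTERF1, or SOLDAT10, is a chloroplast protein whose mutation suppresses cell death triggered by singlet oxygen. Its level was 1.88, 2.67 and 2.15 CPM in Col-0 and 2.98, 3.42 and 2.78 CPM in amiR-mterf2. All mutant libraries lay above all Col-0 libraries, as they did for 25.0% of all genes tested, yet the gap between the closest values was small. The log2 fold change of 0.46 did not pass the test (95% interval -0.12 to 1.03, edgeR adjusted p = 0.199). Without Col-0 replicate 2, the highest of the Col-0 values, the change was 0.61 and was not called either (edgeR adjusted p = 0.112). MTERF18, or SHOT1, is a mitochondrial protein whose loss restores heat tolerance to a chaperone mutant. It had 4.84, 4.53 and 5.99 CPM in Col-0 and 5.14, 5.76 and 6.41 CPM in amiR-mterf2, overlapping ranges with a log2 fold change of 0.17 (95% interval -0.25 to 0.60, edgeR adjusted p = 0.524). Without Col-0 replicate 2 this was 0.10 (edgeR adjusted p = 0.744).

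AT2G34620, for which no role is given here, was the most abundant member per length. Its Col-0 libraries had 20.1, 25.9 and 20.7 CPM and its amiR-mterf2 libraries 27.9, 26.5 and 25.8 CPM. Only Col-0 replicate 2 reached into the mutant range. The log2 fold change was 0.27 (95% interval -0.02 to 0.55, edgeR adjusted p = 0.130). Without Col-0 replicate 2 it was 0.39 and was called (edgeR adjusted p = 0.00344), so that 3 relatives were then higher. Calls over all genes rose as well, to 4046 higher of 18303 tested, against 3248 of 17902 with all libraries.

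**Figure D2:**
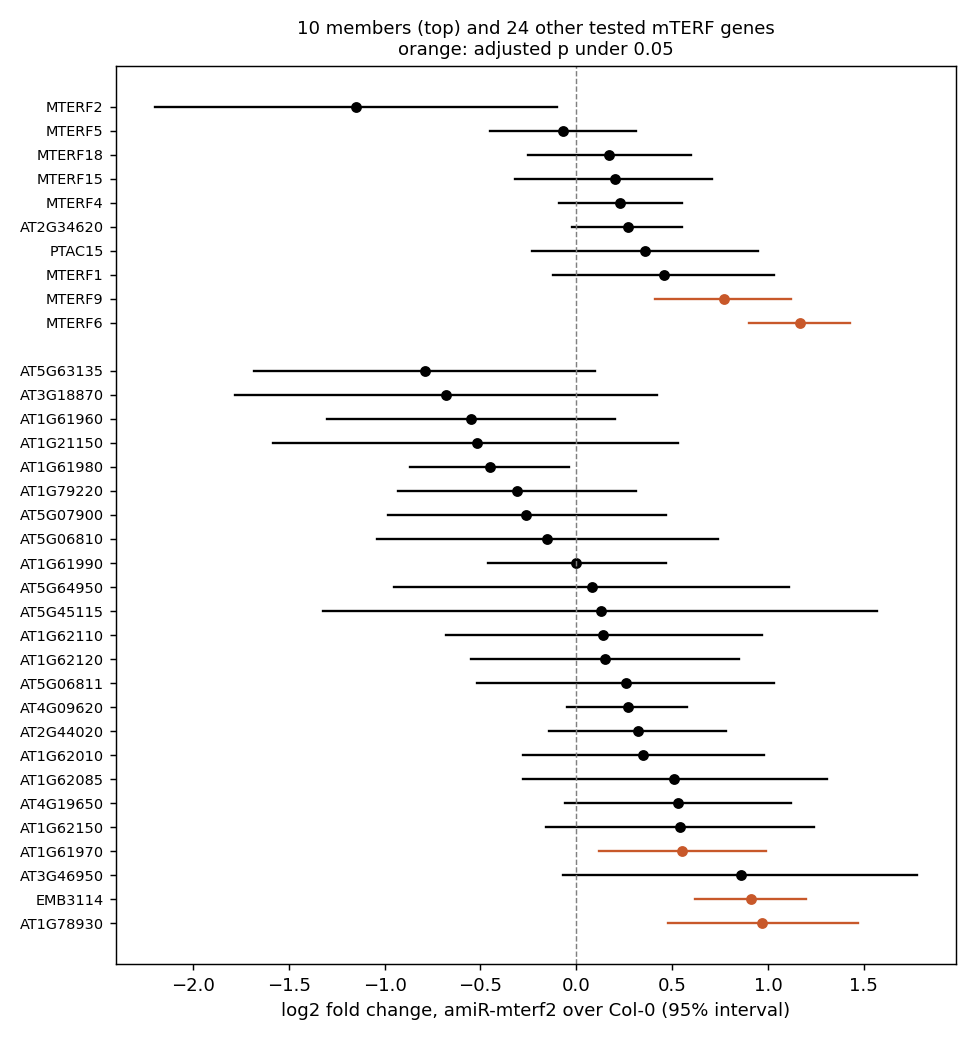
Log2 fold change of amiR-mterf2 over Col-0 with its 95% interval for the 10 members (top) and the 24 other mTERF genes tested. Points in orange had an adjusted p under 0.05 (edgeR): MTERF6 and MTERF9 among the members, and AT1G61970, EMB3114 and AT1G78930 among the others, all of them higher.

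To compare levels between genes, CPM was divided by exon length in kilobases. In Col-0, AT2G34620 stood first with a mean of 18.4 CPM per kb. MTERF4 at 7.01 and MTERF6 at 6.90 CPM per kb followed and could not be ordered, since their ranges overlapped. MTERF5 came next at 5.33 CPM per kb, apart from its neighbours in the order. MTERF9 (2.91 CPM per kb), MTERF18 (2.23), MTERF1 (1.71), PTAC15 (1.64) and MTERF15 (1.42) formed a series in which each overlapped the next. MTERF2 was lowest at 1.01 CPM per kb (0.804 to 1.21 over the libraries), and its highest Col-0 library lay below the lowest of MTERF15. In amiR-mterf2 the order of the means changed only in that MTERF6 passed MTERF4, while MTERF9 kept its place after MTERF5. MTERF6 stood at 15.5 CPM per kb, above all libraries of MTERF4 (8.22 CPM per kb), and MTERF9 at 4.95 CPM per kb overlapped MTERF5 at 5.07. MTERF2 remained last, at 0.459 CPM per kb.

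The shares of the members in their summed counts are on a scale set within each library, where a rise of one member lowers the shares of the others. MTERF6 made up 16.6% ± 1.42 of the members' counts in Col-0 and 27.4% ± 1.44 in amiR-mterf2 (SD, n = 3), and MTERF9 8.19% ± 1.41 and 10.2% ± 0.594. The share of MTERF2 went from 2.73% ± 0.620 to 0.921% ± 0.689, and that of MTERF5 from 11.8% ± 1.00 to 8.19% ± 1.60. In these 4 genes the genotypes did not overlap (two-sided exact permutation tests over 10 shares, each p = 0.1, the smallest possible), and shares of 1 whole are not independent of each other. The level of MTERF5 itself overlapped between the genotypes and was not called, so its lower share is no measured fall of the gene. The other 6 shares overlapped between the genotypes.

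**Figure D3:**
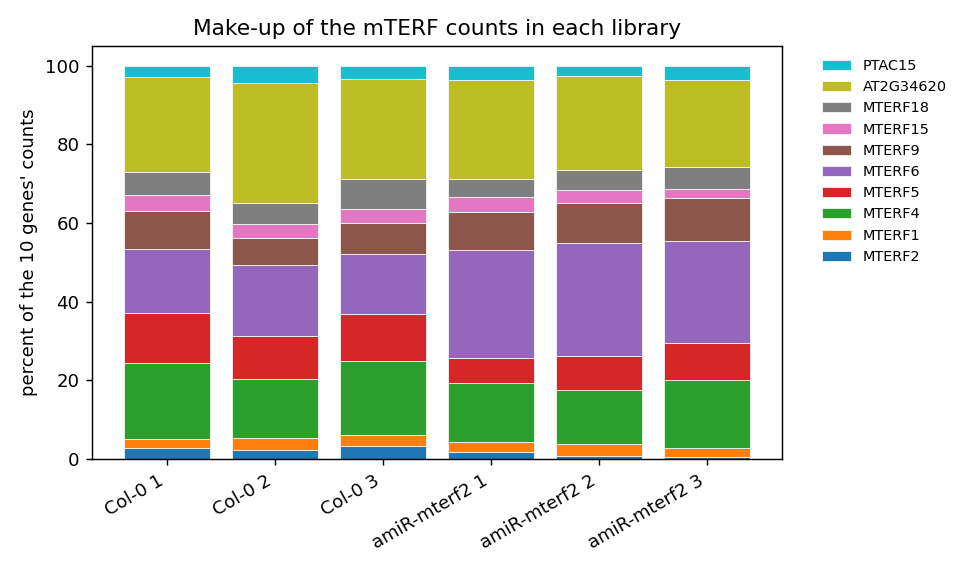
Share of each member in the counts of the 10 mTERF genes, in percent, with 1 bar per library. The MTERF6 segment is taller in each amiR-mterf2 library (mean 27.4%) than in each Col-0 library (mean 16.6%), and the MTERF2 segment at the base is shorter.

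The summed level of the 9 relatives was 80.4, 83.2 and 78.1 CPM in Col-0 and 109, 110.2 and 116.3 CPM in amiR-mterf2. The ranges were well apart, and the difference in log2 of the sum was 0.47 (two-sided exact permutation test, p = 0.1, the smallest possible). With MTERF6 left out, a choice made after seeing the data, the sum was 66.8 ± 1.06 CPM in Col-0 and 80.9 ± 4.46 CPM in amiR-mterf2 (SD, n = 3), a log2 difference of 0.27.

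The other mTERF genes are 28 genes whose annotated product name holds the words transcription termination factor, of which 24 had enough counts to be tested. The name alone does not place each of them in the family. Of these, 3 were higher and 0 lower, against 18.1% and 18.2% of all genes tested, with a median log2 fold change of 0.15. An unadjusted p under 0.05 was found for 4 of the 24, against 8063 of the 17902 genes tested (edgeR). EMB3114 (AT2G36000), an embryo-defective locus, had 18.6, 22.2 and 20.2 CPM in Col-0 and 40.9, 41.6 and 32.6 CPM in amiR-mterf2, a log2 change of 0.91 (standard error 0.132, edgeR adjusted p = 3.06e-04). AT1G78930 had 2.44, 2.18 and 2.81 CPM in Col-0 and 4.33, 5.18 and 5.13 CPM in amiR-mterf2, a log2 change of 0.97 (standard error 0.223, edgeR adjusted p = 0.00573). In both genes the lowest mutant library lay well above the highest Col-0 library, and both were called in all 13 alternatives. AT1G61970 belongs to a cluster of related copies on chromosome 1 and shares 2.32% of its stretches of 30 bases with other mTERF genes, so its counts are less certain. Its log2 fold change was 0.55 (edgeR adjusted p = 0.0481), and the call was lost in 10 of 13 alternatives.

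The promoters of MTERF6 and MTERF9 are shown because these were the members that rose. Each line gives the 250 bases before the annotated gene start (MTERF6, chr4:17902016-17902265; MTERF9, chr5:22515141-22515390; both on the plus strand of the RefSeq assembly TAIR10.1), with motifs in capitals.
MTERF6: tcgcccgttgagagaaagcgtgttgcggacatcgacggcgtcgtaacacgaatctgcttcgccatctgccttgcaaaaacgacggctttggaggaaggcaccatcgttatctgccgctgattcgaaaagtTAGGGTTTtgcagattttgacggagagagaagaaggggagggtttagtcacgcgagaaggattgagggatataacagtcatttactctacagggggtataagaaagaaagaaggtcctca
MTERF9: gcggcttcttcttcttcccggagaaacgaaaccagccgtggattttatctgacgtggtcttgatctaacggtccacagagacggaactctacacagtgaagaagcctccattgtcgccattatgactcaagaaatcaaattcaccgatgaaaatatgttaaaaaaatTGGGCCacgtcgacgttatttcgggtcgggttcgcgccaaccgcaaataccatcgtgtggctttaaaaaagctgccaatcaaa
The letters searched on both strands were the telo box AAACCCTA, the site II element TGGGCC or TGGGCT, and the G-box CACGTG, in windows from 250 bases before to 50 bases after the gene start. MTERF6 held a telo box, read on the other strand as TAGGGTTT, 120 bases before its start, and MTERF9 held TGGGCC 83 bases before its start. No motif was common to both. The telo box was in 2 of the 10 members (6.22% of 27443 nuclear protein-coding genes), the site II element in 4 of 10 (21.7% of all) and the G-box in 1 of 10, AT2G34620 (7.68% of all). Of the 4 members with a site II element, MTERF2, MTERF5, MTERF9 and PTAC15, MTERF9 was called, against 36.4% of the 17902 genes tested. With 4 genes this is no result about the motif.

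Markers of tissue and growth moved with the genotype and are given beside these results. The root list was tested for 4 of its 5 genes, of which 3 were lower, and its summed level was 25.1 to 41.3 CPM in Col-0 and 11.5 to 14.3 CPM in amiR-mterf2. COBL9 had 0 to 2 counts in the mutant libraries and 10, 176 and 12 in Col-0, and EXPA7 was at 0 in all but Col-0 replicate 2. The list for dividing cells had 2 of 4 genes lower, at a summed 9.50 to 12.9 CPM in Col-0 and 3.74 to 5.88 CPM in amiR-mterf2. Of the 4 seed storage genes 3 were higher, and their sum was 6.87 to 8.47 CPM in Col-0 and 15.6 to 19.3 CPM in amiR-mterf2. Of the 5 green-tissue genes 1 was higher and 1 lower. The part of tissue make-up in the MTERF6 and MTERF9 results was not tested, and in whole seedlings fewer cells of a type and less RNA per cell cannot be told apart.

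**Figure D4:**
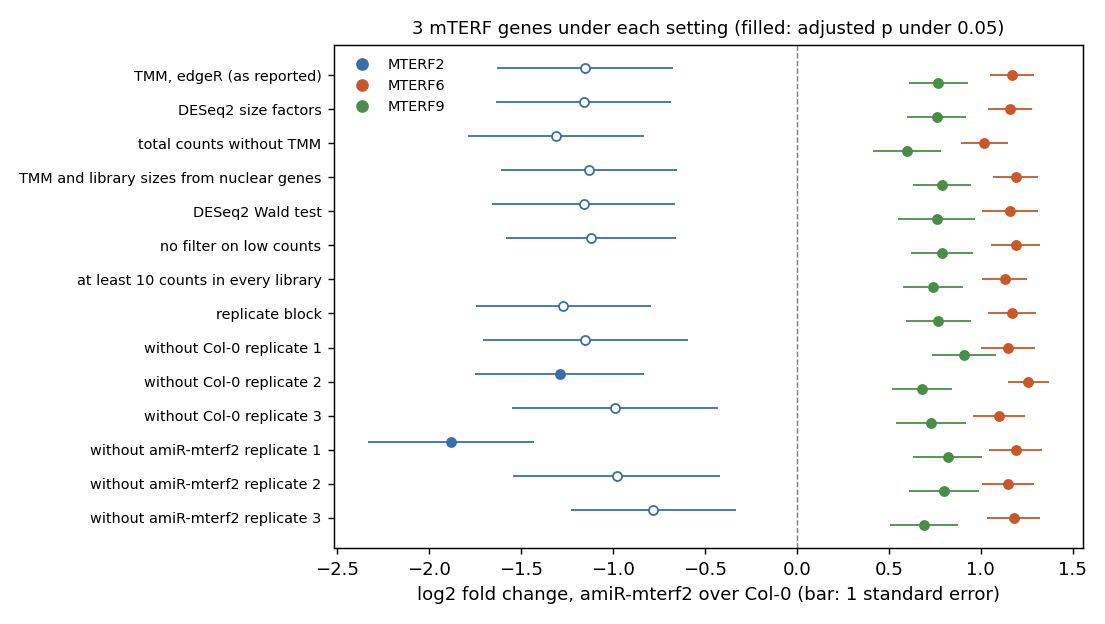
Log2 fold change of MTERF2, MTERF6 and MTERF9 under each way of processing, with bars of 1 standard error and filled points where the adjusted p was under 0.05. MTERF6 stayed between 1.02 and 1.26 and MTERF9 between 0.60 and 0.91, all filled, whereas MTERF2 ranged from -1.88 to -0.78 and was filled in 2 of 12 alternatives.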

How the data were processed

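RNA-Seq of rRNA-depleted RNA was analysed for 3 Col-0 and 3 amiR-mterf2 libraries, grouped and numbered by the sample titles. The authors deposited raw counts per gene over exons, without normalization. The file headers name HISAT2, whereas the submitters' processing notes list Trimmomatic, FastQC, TopHat2 2.1.1, featureCounts and TAIR10. Strand setting, treatment of reads with several matches and whether paired mates were counted separately are not given in the sources used here. The sources do not say whether same-numbered libraries were grown together.

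Genes were filtered with filterByExpr (minimum count 10, total 15), scaled by TMM and compared by the quasi-likelihood test of edgeR 4.0.16 in R 4.3.3, with Benjamini-Hochberg adjustment over 17902 genes and a threshold of 0.05. Intervals are 95%. DESeq2 1.42.0 served as an alternative. Both were tested on simulated counts. Ratios, shares and sums were compared by two-sided exact permutation over libraries. Annotation and sequences came from RefSeq TAIR10.1, which held 36632 of the 36917 identifiers, and proteins were aligned with Biopython 1.88. Members and lists were chosen with earlier results of these data known. Named genes were the 10 members and, of the other mTERF genes, the 3 largest rises and the 3 largest falls among those called whose genotypes did not overlap (3 rises and 0 falls qualified).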

Additional observations from a re-analysis of the deposited data

How the results depend on the processing

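Alternatives were DESeq2 size factors, total counts, nuclear-only scaling, the DESeq2 Wald test, other filters, a replicate block and leaving out each library. MTERF6 and MTERF9 were called in all of them. Total counts without TMM moved the median of all genes from -0.02 to -0.17 and gave 2129 higher genes in place of 3248 (4148 lower in place of 3261), 1 lower gene among the other mTERF genes, and a summed level of the 9 relatives that differed by 0.32 on the log2 scale. Without MTERF6, chosen after seeing the data, that difference was 0.27. With 1 library left out, 0 to 1 members and 0 to 1 other mTERF genes were lower. The lower member was MTERF2, without Col-0 replicate 2 or without amiR-mterf2 replicate 1. MTERF5 reversed to 0.10 without amiR-mterf2 replicate 1 and ranged from -0.21 to 0.10 with 1 library left out. Its adjusted p over all alternatives ranged from 0.387 to 0.985 (edgeR and DESeq2), that of MTERF2 from 0.0150 to 0.236, that of AT2G34620 from 0.00344 to 0.501 and that of AT1G61970 from 0.0376 to 0.195. Causes were not tested. MTERF2 had under 10 counts in a library and so no value under the filter of at least 10 counts in every library.

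Same-numbered libraries did not deviate together (correlations of deviations 0.04, 0.03 and -0.02). The replicate block gave 3146 higher and 3126 lower genes, 2 higher and 0 lower members, a log2 fold change of -1.27 for MTERF2, and 2 higher and 0 lower other mTERF genes. Paired differences were -1.85 for the MTERF2 ratio and 0.47 for the summed relatives (exact sign-flip permutation, p = 0.25, the smallest possible).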
